A study of Mus musculus with 2 samples.

Results

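The barcodes described here carried transcripts of the classical MHC class II genes far above the level in microglia-like barcodes. Each had at least 10 unique molecular identifiers (UMIs) over H2-Aa, H2-Ab1, H2-Eb1 and Cd74, all 4 of these genes detected, and no more than 2 of the 6 border macrophage genes Mrc1, Pf4, Lyve1, F13a1, Cbr2 and Cd163. Of 28383 barcodes that passed the filter, 154 met this rule. They came from cells sorted as CD45low CD11b+, the usual gate for microglia, from the prefrontal cortex of C57BL/6 mice given vehicle or corticosterone by oral gavage, a mouse model of depression with raised glucocorticoid. Each group is 1 Singleron GEXSCOPE library. The number of animals behind a library, their sex and age, the dose and the duration of treatment are not given in the sources used here. With 1 library per group no test between groups was possible, and every interval below covers counting error only.

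MHC class II molecules present peptides from engulfed proteins to CD4+ T cells. H2-Aa and H2-Ab1 encode the 2 chains of I-A, H2-Eb1 the beta chain of I-E, and Cd74 the invariant chain that escorts them to the endosome, where the H2-DM molecule exchanges its fragment for antigen. Ciita is the transactivator that switches these genes on. In the brain, most class II protein at steady state is found on dendritic cells and border macrophages of the meninges and choroid plexus, and microglia carry little. Conventional dendritic cells fall into cDC1 (Xcr1, Clec9a) and cDC2 (Sirpa, and in part Cd209a and Mgl2), and both use the transcription factor Zbtb46 and the growth factor receptor Flt3.

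The class II genes share an upstream control module, an X box followed by a Y box. H2-Aa and H2-Eb1 are genes of the rule, so their higher level in these barcodes was fixed by it. H2-DMb1 is not a gene of the rule and was also higher than in microglia-like barcodes. The promoters of these 3 genes are shown. They are the 150 bases before the start in the RefSeq table (build GRCm38.p6), printed 5′ to 3′ on the gene's strand, with the X-box core GNAAC and the Y box GATTGG in capitals. H2-Aa lies at chr17:34287824-34287973 on the minus strand, H2-Eb1 at chr17:34305717-34305866 and H2-DMb1 at chr17:34153041-34153190, both on the plus strand.
H2-Aa: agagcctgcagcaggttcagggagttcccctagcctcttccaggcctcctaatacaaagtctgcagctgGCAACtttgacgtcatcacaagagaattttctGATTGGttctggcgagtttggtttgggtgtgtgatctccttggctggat
H2-Eb1: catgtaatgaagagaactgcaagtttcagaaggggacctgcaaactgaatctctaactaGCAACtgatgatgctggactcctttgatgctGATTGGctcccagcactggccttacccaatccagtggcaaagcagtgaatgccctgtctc
H2-DMb1: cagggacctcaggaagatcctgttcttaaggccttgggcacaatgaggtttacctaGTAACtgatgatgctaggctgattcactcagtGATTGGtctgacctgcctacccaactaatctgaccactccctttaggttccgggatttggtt

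The gap between the motifs was 27 bases in H2-Aa, 26 in H2-Eb1 and 27 in H2-DMb1. Searched on both strands with a gap of 18 to 32 bases, GNAAC followed by GATTGG occurred in 278 of 32851 promoter windows of 300 bases (0.846%), and in 5 of the 7 class II genes with a window. GATTGG alone was in 16.1% of all windows. H2-Oa also held the pair, and its level was not raised in the class II high barcodes: it was at 39.0 and 73.1 CPM (UMIs per 1000000 of a group's total) in vehicle and corticosterone, against 56.3 and 92.0 in microglia-like barcodes. A match of letters is a description and not a measured binding site.

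In the vehicle library 97 of 10500 barcodes met the rule, 0.924% (exact Clopper-Pearson 95% interval 0.750 to 1.13), and in the corticosterone library 57 of 17883 did, 0.319% (0.241 to 0.413). The vehicle share was 2.90 times the corticosterone share, and the intervals did not overlap. With every barcode thinned to 1000 UMIs before the rule was applied the shares were 0.764% and 0.271%. The sort sets which cells could be seen, since dendritic cells often carry more CD45 than the gate admits, so these are shares of sorted barcodes and not of the tissue. Only 6 and 5 members had 10 to 14 class II UMIs. Just outside the rule, 9 vehicle and 6 corticosterone barcodes had all 4 genes but 4 to 9 UMIs, while 64 and 33 failed only because more than 2 macrophage genes were detected. Another 7 vehicle and 39 corticosterone barcodes had at least 10 class II UMIs and at most 2 macrophage genes, but not all 4 class II genes. Unlike the other groups, this one was larger in the corticosterone library.

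The 97 vehicle members summed to 563949 UMIs (median 3504 per barcode) and the 57 corticosterone members to 478613 (median 8224). Among microglia-like barcodes, with at least 3 of P2ry12, Tmem119, Sall1, Fcrls and Gpr34 detected and fewer than 10 class II UMIs, the medians were 3130.5 (n = 8772) and 4019.5 (n = 15658). Members in the corticosterone library were thus deeper by a larger margin than the microglia-like barcodes around them, so counts of barcodes with a UMI are not comparable between the libraries unless thinned to 1 depth. The libraries had 104 barcode sequences in common, and no barcode was a member in both. Scrublet, a doublet caller, marked no barcode in either library and so did not work here.

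The rule's own genes stood at similar levels in both libraries. Among vehicle members, Cd74 had 2 to 408 UMIs per barcode (median 39) and among corticosterone members 1 to 454 (median 60). Pooled over members, the Cd74 level was 11020 and 10244 CPM (vehicle first), H2-Eb1 at 5022 and 4590, H2-Aa at 4770 and 4735, and H2-Ab1 at 3745 and 3945. These 4 values chose the barcodes and are a description. The class II share of a member's UMIs ran from 0.0856% to 13.6% in vehicle (median 2.28) and from 0.152% to 10.5% in corticosterone (median 1.80).

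Of the other class II machinery, Ciita had 9 and 16 UMIs among members, 15.96 CPM (7.30 to 30.3) in vehicle and 33.4 (19.1 to 54.3) in corticosterone. Microglia-like barcodes had 3 and 7 UMIs of Ciita in far larger totals, 0.0849 and 0.0948 CPM. H2-DMb1, a chain of the peptide-exchange molecule, was at 335 and 397 CPM in members and at 98.2 and 120 in microglia-like barcodes. Its partner H2-DMa was at 599 and 788 CPM, against 229 and 535. Cathepsin S (Ctss), which trims the invariant chain, was at about the microglial level, with 6703 and 5685 CPM in members and 6616 and 6759 in microglia-like barcodes. Costimulatory Cd86 was likewise near the microglial level (229 and 311 CPM against 279 and 303), whereas Cd40 had 8 and 17 UMIs in members, 14.2 and 35.5 CPM against 0.651 and 2.06. Without the Cxcl10-Il12b cluster described below, the log2 ratio of Cd40 between the libraries went from 1.32 to -2.54. That ratio rests on very few UMIs and is not read as a fall.

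The markers given with the label were partly present. Ccr2, the receptor that brings monocytes and their descendants into tissue, had a UMI in 52 of 97 vehicle members and 37 of 57 corticosterone members. Its pooled level was 388 CPM (339 to 443) and 485 (424 to 551), against 5.15 and 3.17 in microglia-like barcodes. Mgl2, a C-type lectin of cDC2 and some macrophages, was at 172 CPM (140 to 210) in 31 vehicle members and 341 (290 to 397) in 27 corticosterone members. Cd209a, the mouse DC-SIGN lectin, was at 112 CPM (85.8 to 143) from 8 barcodes and 267 (223 to 318) from 16, and 1 barcode held 60.3% and 30.5% of its UMIs. None of the 3 genes had a UMI in 33 of 97 and 16 of 57 members. At 1000 UMIs per barcode, Ccr2 was detected in 31.8% of 88 vehicle and 30.9% of 55 corticosterone members and in 0.570% and 0.328% of microglia-like barcodes, taken here as the background of free RNA. At that depth Cd209a was found in 4.55% and 5.45% of members, so the wider detection of Cd209a in the corticosterone library was not seen at equal depth. The thinning left out 9 and 2 shallower members.

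The genes that define dendritic cells were low or absent. Xcr1 had no UMI in any member, which allows up to 5.32 CPM in vehicle and 6.27 in corticosterone, and Itgae likewise had none. Zbtb46 had 0 and 4 UMIs, Flt3 7.09 and 12.5 CPM, and Ccr7, the receptor for migration to lymph nodes, 1 UMI in each library. Clec9a had 6 UMIs in 5 vehicle members and none in corticosterone. Itgax, the CD11c gene, was at 15.96 and 33.43 CPM. In microglia-like barcodes Zbtb46 was at 2.35 and 5.92 CPM, Flt3 at 1.24 and 1.45 and Itgax at 4.72 and 10.75. In members with over 5% of UMIs in class II genes, Flt3 and Itgax each had 2 UMIs in vehicle (29.4 CPM) and 5 in corticosterone (95.1 CPM). Several macrophage genes were near microglial levels: Csf1r, the receptor for macrophage growth factor, was at 2669 and 2656 CPM against 3216 and 3997, complement C1qa at 4586 and 4870 against 4890 and 6153, and Fcgr1 (CD64) at 436 and 641 against 468 and 603. Of the 15 macrophage genes 2, Lyz2 and Ms4a7, were past 2-fold higher than in microglia-like barcodes in both libraries and none was lower. Of the markers of the dendritic-like label, class II was fixed by the rule, while Ccr2, Mgl2 and Cd209a stood above microglia-like levels. Macrophage-marker barcodes had at least 4 of the 6 border macrophage genes. Thinned to equal depth, 11.7% of vehicle and 0.529% of corticosterone ones had Cd209a, against 4.55% and 5.45% of members. For Mgl2 the shares were 8.51% and 20.1%, against 14.8% and 18.2%. Unlike Cd209a and Mgl2, Ccr2 was more frequent in members in both libraries, at 31.8% and 30.9% against 0.575% and 0.661%. Zbtb46, Flt3 and Xcr1 were scarce or missing, and the barcodes are called class II high here.

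**Figure D1:**
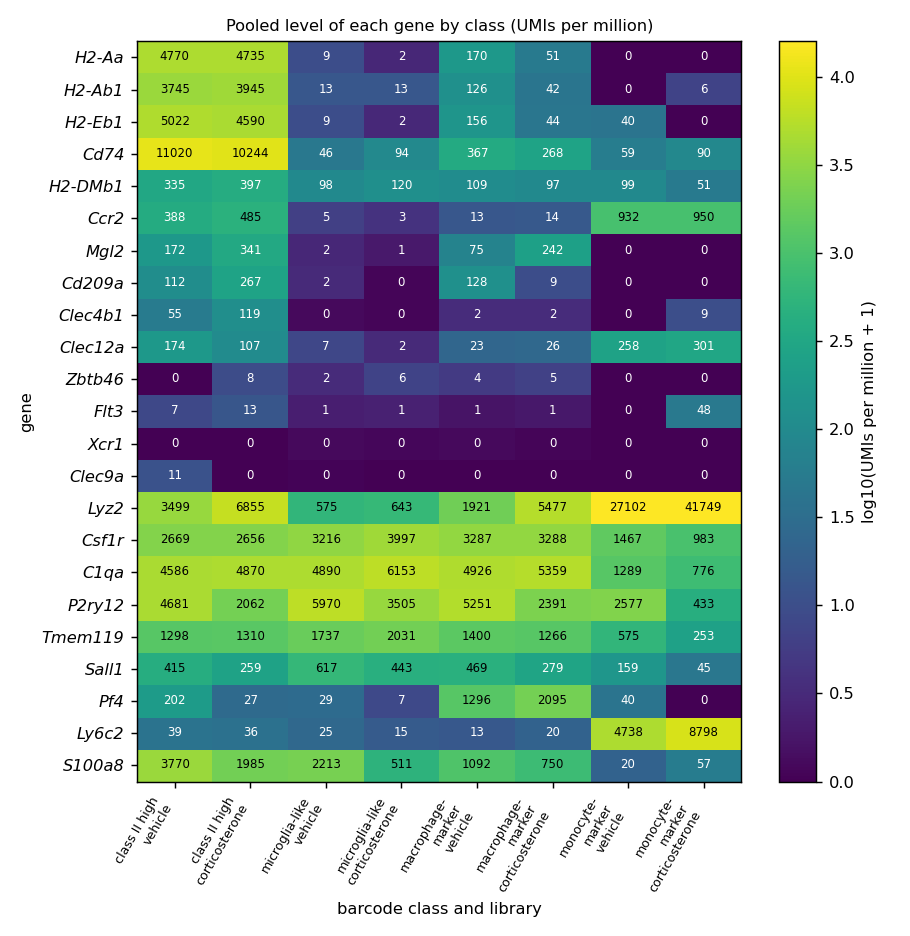
Pooled level (CPM, number in each cell; colour is log10 of the level plus 1) of 23 genes in class II high, microglia-like, macrophage-marker and monocyte-marker barcodes of each library. Class II genes, Ccr2, Mgl2 and Clec4b1 stood above microglia-like barcodes in both libraries, Xcr1 was at 0, and C1qa and Csf1r were near the microglial level.

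Microglial transcripts were high in most members. The summed level of P2ry12, Tmem119, Sall1, Fcrls and Gpr34 was 10320 CPM in vehicle members and 4739 in corticosterone members, against 13232 and 7860 in microglia-like barcodes. All 5 genes were detected in 50 of 97 and 27 of 57 members, and 1 and 4 members had none of them. The sum fell along the class II share. Across the 97 vehicle members Spearman's rho between the 2 quantities was -0.57, and across the 57 corticosterone members it was -0.61. Both are shares of the same UMI total and both also moved with depth, so these coefficients are descriptions. Whether the microglial transcripts belong to the class II cell, to a second cell under the same barcode or to free RNA was not tested.

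Members were also divided by their class II share, a value the rule used. With under 1% of UMIs in class II genes there were 22 vehicle and 18 corticosterone barcodes, with 1 to 5% there were 48 and 28, and with over 5% there were 27 and 11. From the lowest to the highest range the microglial sum went from 11537 through 10856 to 4953 CPM in vehicle and from 5523 through 5062 to 818 in corticosterone. Lyz2, the lysozyme of macrophages and monocytes, ran the other way, at 1166, 3607 and 7937 CPM in vehicle and 1720, 7010 and 20527 in corticosterone. Ccr2 went from 41.2 through 326 to 1455 CPM and from 155 through 472 to 1484. Cd209a had no UMI in the lowest range of either library and reached 617 and 970 CPM in the highest. Most of its UMIs in the highest range came from 1 barcode in each library, with 38 and 39. It had a UMI in 3 of 27 vehicle and 3 of 11 corticosterone barcodes there, and in 5 of 48 and 13 of 28 in the middle range. C1qa fell less steeply than the microglial sum, with 5281, 4441 and 3836 CPM in vehicle and 5334, 5195 and 1845 in corticosterone. Barcodes over 5% were the shallowest, with a median of 1967 UMIs in vehicle and 3548 in corticosterone.

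**Figure D2:**
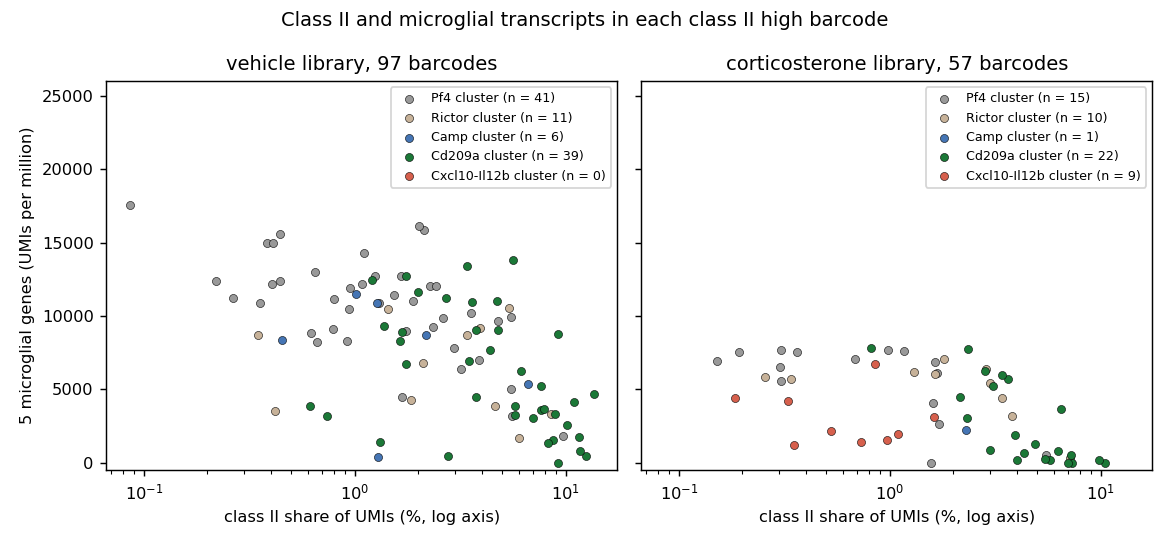
Each point is a class II high barcode, with its class II share of UMIs (percent, log axis) against the summed level of 5 microglial genes (CPM), coloured by cluster. The highest class II shares go with the lowest microglial sums in both libraries, and the Cxcl10-Il12b barcodes lie at or below a share of 1.61%.

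Against microglia-like barcodes of the same library, 90 of 3689 genes were past 2-fold higher in both libraries (2.44%) and 6 lower (0.163%). Since the rule set class II high barcodes against all others, these counts only describe the members. After the class II genes, Ccr2, Mgl2 and Cd209a, the others of the 15 with the highest ratio were the C-type lectins Clec4b1 (55.0 and 119 CPM against 0.283 and 0.163) and Clec12a (174 and 107 against 6.79 and 2.194), the interferon-inducible nuclear proteins Ifi203 and Mndal, the cytoskeletal scaffold Ahnak, the calcium-binding S100a4, the lysozyme Lyz1 and Ch25h, which makes 25-hydroxycholesterol. Lyz2 was at 3499 and 6855 CPM in members and 575 and 643 in microglia-like barcodes. Between the libraries Lyz2 and Mgl2 were under 2-fold, with log2 ratios of 0.97 and 0.99, and in members with no macrophage gene detected they were at -0.86 and -0.33. The lowest were the haemoglobin genes Hba-a1, Hba-a2, Hbb-bs and Hbb-bt and the neutrophil gene Retnlg. The monocyte gene Ly6c2 was at 39.0 and 35.5 CPM in members, against 25.3 and 15.0 in microglia-like barcodes and 4738 and 8798 in barcodes picked by Ly6c2. Transcripts of T and NK cells summed to 58.5 and 31.3 CPM over 20 genes, and 1 vehicle member carried all 8 B cell genes looked for.

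Clustered on their own, with class II and macrophage genes left out and each gene scaled within its library, the 154 barcodes split into 5 clusters. The count depended on the resolution (2 at the lower and 8 at the higher setting). The leading genes were ranked after the split, from the same counts, and are descriptions. A Cd209a cluster of 61 (39 vehicle, 22 corticosterone) was led by Cd209a, S100a4, S100a6, Wfdc17 and Vim. In pooled level, 4 of the 15 cDC2 markers (Cd209a, Mgl2, Clec10a and Tnip3) were at least 2-fold above the other members. Most of its barcodes lacked each of them: Cd209a had a UMI in 18 of the 61, Mgl2 in 29, and Clec10a and Tnip3 in 9 each. The median class II share of this cluster was 4.74% and its microglial sum 6247 CPM. A Pf4 cluster of 56 (41 and 15) was the most microglial, with a sum of 10637 CPM and a class II share of 1.21%. Pf4 itself was left out of the clustering and had a UMI in 17 of the 56. A cluster of 21 (11 and 10) was led by Rictor and other broadly expressed genes. A Camp cluster of 7 (6 and 1) had 12 of the 14 neutrophil markers, among them S100a8 at 52840 CPM. A Cxcl10-Il12b cluster held 9 barcodes, all from the corticosterone library, and its leading genes were Cxcl10, Il12b, Ccl12, Ifit2 and Ccl5.

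The 9 Cxcl10-Il12b barcodes made up 14.5% of corticosterone member UMIs. They had 2912 to 15751 UMIs, class II shares of 0.184 to 1.61%, and no UMI of Ccr2, Mgl2 or Cd209a. Their Ccl12, a ligand of Ccr2, was at 42576 CPM, against 780 in the other 48 corticosterone members and 1447 in vehicle members. The chemokine Ccl4 was at 32594 CPM, against 3268 and 3605. The interferon-induced chemokine Cxcl10 was at 6228 CPM, against 75.8 and 24.8, and had a UMI in 7 of the 9. Tnf was at 3855 CPM, against 391 and 307. Interferon beta (Ifnb1) had 28 UMIs in 4 of the 9, 3 UMIs in 1 other corticosterone member and none in vehicle. Il12b, the p40 subunit of interleukin 12 and 23, had 53 UMIs in 3 of the 9 and none in any other member. S100a4, S100a6, Crip1, Ahnak and Vim, high in the Cd209a cluster, had no UMI in the 9. Because the genes that define this cluster also differ between the libraries, its size is not compared between them.

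Barcodes with this pattern were not limited to class II high ones. With limits chosen after seeing the data, at or above the lowest interferon level (22966 CPM) and the lowest cytokine level (16234 CPM) of the 9 there were 116 of 15658 microglia-like barcodes in corticosterone, 0.741% (0.613 to 0.888), and 5 of 8772 in vehicle, 0.0570% (0.0185 to 0.133). Among corticosterone members 9 of 57 reached both levels. These are the 9 whose own lowest values set the limits, so they had to pass. Among vehicle members 1 of 97 reached both levels. The member counts are not compared between the libraries.

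**Figure D3:**
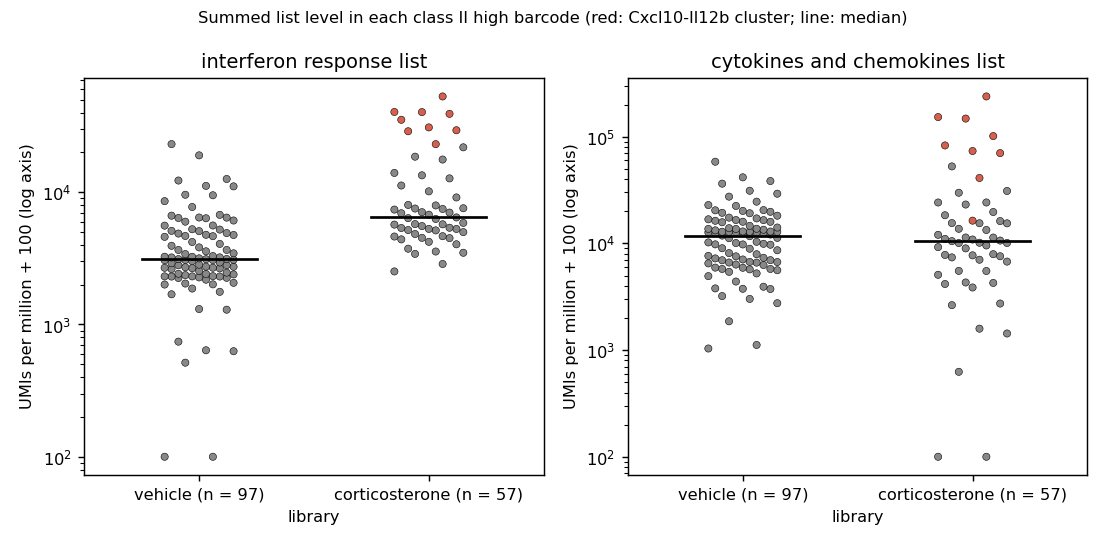
Summed level of the interferon response list (left) and the cytokines and chemokines list (right) in each class II high barcode of each library (CPM plus 100, log axis; line, median). The 9 red barcodes of the Cxcl10-Il12b cluster lie between 22966 and 52800 CPM of interferon response genes, a range that 1 vehicle barcode also reaches, while the library medians were 3014 and 6342.

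Corticosterone was then set against vehicle within the class II high barcodes. With a pooled mean of at least 50 CPM, 3274 genes entered. A gene counted as higher or lower if past 2-fold with an exact counting interval of the ratio that excluded 1. By this rule 148 genes were higher in the corticosterone library (4.52%) and 97 lower (2.96%), with a median log2 ratio of 0.03 over all genes. In microglia-like barcodes 64 of 3462 were higher (1.85%) and 53 lower (1.53%), where the larger totals leave less counting error. In macrophage-marker barcodes 2.28% were higher and 1.17% lower. The 2 libraries also differ in anything else that was done separately to them, which cannot be told apart from the treatment.

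Interferon-induced genes were the group with the highest median. Of 36 genes listed, 29 passed the minimum, 25 were higher and none lower, with a median log2 ratio of 2.09, against 4.52% of all genes higher and a median of 0.03. Isg15, a ubiquitin-like modifier, went from 47.9 CPM (31.6 to 69.7) to 389 (335 to 449), a log2 ratio of 3.02 (2.43 to 3.66). Ifit3, an antiviral RNA-binding protein, went from 37.2 to 330 CPM, and Ifitm3, which blocks virus entry, from 255 to 1189, a log2 ratio of 2.22 (1.95 to 2.49). Ifitm3 had a UMI in 50 of 97 and 54 of 57 members, and in 26.1% and 58.2% at 1000 UMIs per barcode. Thinned likewise, Isg15 was detected in 5.68% of 88 vehicle and 29.1% of 55 corticosterone members, and in 1.71% and 5.97% of microglia-like barcodes. The remaining genes among the 12 highest were mostly of this kind: Ifit2 (log2 3.47), Ifi211 (3.35), Rsad2 (3.18), Gbp2 (3.08) and Usp18 (3.07). Ifit3 and Ifit3b, the Ifi200 genes and Lyz1 and Lyz2 are close copies, and how reads shared between copies were counted is not given in the sources used here. In microglia-like barcodes the same 29 genes had a median log2 ratio of 1.69. Without the 9 Cxcl10-Il12b barcodes, the median over these 29 was 0.88. Of the 20 genes that then passed the minimum 7 were higher, against 3.23% of all genes. Ifitm3 kept a log2 ratio of 1.97 without them, Isg15 had 1.26 and Irf7, the interferon regulatory factor, fell from 2.43 to 0.96.

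Interferon-induced promoters often hold a pair of GAAA words with 2 bases between them, the core of the interferon-stimulated response element. The pair was in 19 of the 26 list genes with a RefSeq window and in 3.44% of all 32851 windows, searched on both strands. Cxcl10, Ifit3 and Isg15, which were all past 2-fold higher in corticosterone members, are shown up to the base before the start, with matches in capitals. Overlapping matches run together, so that Isg15 has 3, Ifit3 2 and Cxcl10 1. Their positions in GRCm38.p6 are chr5:92348890-92349109 (minus strand) for Cxcl10, chr19:34583369-34583528 (plus) for Ifit3 and chr4:156200819-156200908 (minus) for Isg15.
Cxcl10: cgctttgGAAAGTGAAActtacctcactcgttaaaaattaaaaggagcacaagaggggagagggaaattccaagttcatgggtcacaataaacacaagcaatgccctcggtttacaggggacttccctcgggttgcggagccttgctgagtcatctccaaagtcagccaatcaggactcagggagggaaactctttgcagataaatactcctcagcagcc
Ifit3: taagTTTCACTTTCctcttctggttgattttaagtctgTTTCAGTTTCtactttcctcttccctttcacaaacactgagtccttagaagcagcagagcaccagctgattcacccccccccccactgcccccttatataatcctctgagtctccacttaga
Isg15: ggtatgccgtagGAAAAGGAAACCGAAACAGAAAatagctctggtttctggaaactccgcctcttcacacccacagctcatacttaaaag

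Cytokine and chemokine genes were also higher. Of 30 listed, 20 passed the minimum, 11 were higher and none lower, against 4.52% of all genes higher. The median log2 ratio was 1.05, against 0.07 in microglia-like barcodes. Cxcl10 went from 24.8 CPM (13.6 to 41.7) to 969 (883 to 1062), a log2 ratio of 5.29 (4.53 to 6.17), and in microglia-like barcodes from 45.0 to 81.7. Ccl12 went from 1447 to 6851 CPM, Ccl4 from 3605 to 7528 and Tnf from 307 to 894. Il12b, with 0 and 53 UMIs, was at least 20.8-fold higher, against a floor of 3 UMIs over the vehicle members. Without the 9 barcodes the picture was different: 2 of the 18 genes that passed the minimum were higher, against 3.23% of all genes. The median was then 0.15, and the log2 ratios were 1.61 for Cxcl10, -0.89 for Ccl12, -0.14 for Ccl4 and 0.35 for Tnf. Cxcl2, a neutrophil attractant, was the exception, at 133 and 526 CPM and a log2 ratio of 1.99 with them and 2.20 without. A single corticosterone barcode held 33.3% of its UMIs, and it had a UMI in 18 and 19 members. With each barcode given equal weight, the log2 ratio of Cxcl2 was 1.02.

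Genes of adhesion and migration did not depend on those 9 barcodes. Of 26 listed, 18 passed the minimum, 9 were higher and none lower, against 4.52% of all genes higher. The median log2 ratio was 0.95, against 0.25 in microglia-like barcodes, and macrophage-marker barcodes were close to members at 0.93. Without the 9, 9 of 19 were higher, against 3.23% of all genes, and the median was 0.89. S100a4 went from 30.1 CPM (17.6 to 48.3) in 8 members to 159 (125 to 199) in 19 and Ahnak from 42.6 to 224, both with a log2 ratio near 2.4 (2.40 and 2.39). Crip1, a LIM-domain protein of leukocytes, went from 179 to 629 CPM and Lgals1, the lectin galectin 1, from 94.0 to 261. Within the Cd209a cluster alone the log2 ratios were 2.27 for S100a4, 1.99 for Ahnak, 1.40 for Crip1 and 1.49 for Lgals1. In that cluster S100a6 had a UMI in 9 of 39 vehicle barcodes (308 CPM) and in 20 of 22 corticosterone barcodes (964 CPM). Over all members at 1000 UMIs per barcode, S100a6 was detected in 5.68% of vehicle and 32.7% of corticosterone ones. The monocyte gene Ms4a4c went from 23.1 to 261 CPM (log2 3.50), found in 11 and 29 members and, at 1000 UMIs, in 1.14% and 16.4%. Plac8 went from 12.4 to 144 CPM (log2 3.54), found in 4 and 8. In microglia-like barcodes the log2 ratio was 2.92 for Ms4a4c and 0.75 for Plac8. Ms4a4c was detected there in 0.248% and 1.64% at 1000 UMIs, so its rise was not particular to members. Among members Lyz1 went from 3 to 86 UMIs, of which 1 barcode held 44.2%. Because leading genes of the Cd209a cluster are on this list, differing make-up of the 2 member sets and differing levels within a cell cannot be told apart.

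**Figure D4:**
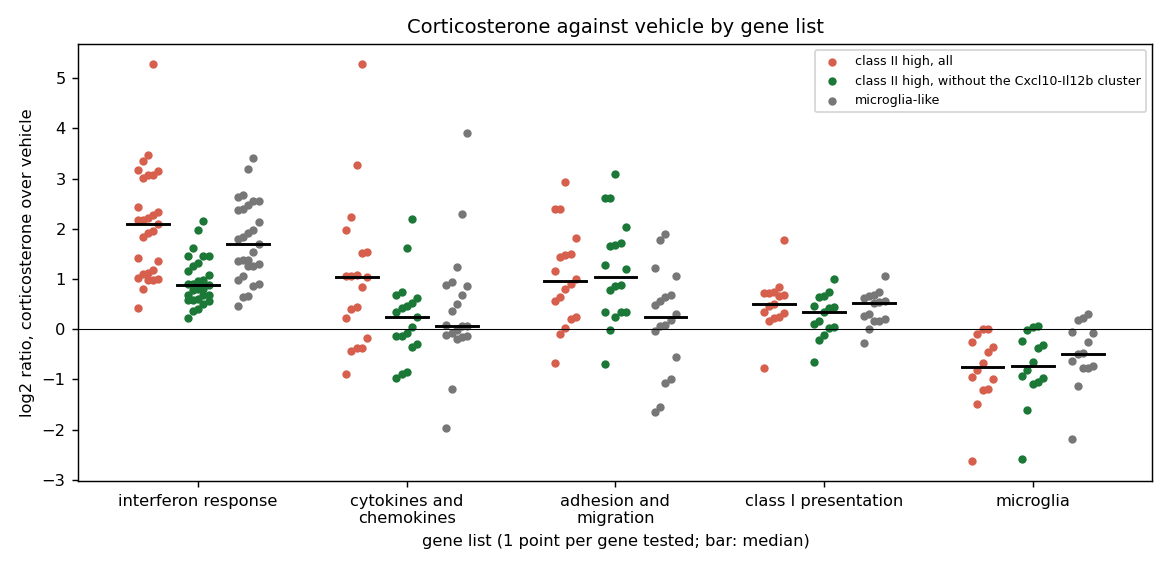
Log2 ratio of corticosterone over vehicle for each gene of 5 lists that passed the minimum among members (points; bar, median), in all class II high barcodes, without the Cxcl10-Il12b cluster, and in microglia-like barcodes; Il12b, at 0 in vehicle, is not drawn among members. The interferon and cytokine medians were lower without the 9 barcodes (0.88 and 0.25 over the same genes), and the adhesion median was 1.05.

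Few antigen presentation genes were past 2-fold. None of the 7 class II pathway genes that passed the minimum (of 15) was, with a median of 0.33 against 0.38 in microglia-like barcodes. Members were chosen by class II transcripts in both libraries, and Ciita did not pass the minimum. Of the class I list, 14 of 15 genes had a log2 ratio above 0, as had 1702 of the 3274 genes tested. The class I median was 0.51, against 0.03 over all genes and 0.52 in microglia-like barcodes. By the 2-fold rule 1 of 15 was higher, against 4.52% of all genes. That gene was Tap1, the peptide transporter, at 47.9 and 165 CPM (log2 ratio 1.79); without the 9 Cxcl10-Il12b barcodes its log2 ratio was 0.99 and no class I gene was past 2-fold higher. Within the Cd209a cluster alone the class I median was -0.09. H2-D1 went from 1291 to 1839 CPM and B2m, the light chain of class I, from 4664 to 5411, both under 2-fold. Of 5 costimulation and checkpoint genes 1 was higher, against the same 4.52%, Icosl, at 70.9 and 157 CPM (log2 ratio 1.14), and without the 9 barcodes it had a log2 ratio of 0.81, under 2-fold.

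Among lower genes, the microglial list had 4 of 14 genes lower, against 2.96% of all genes, and none higher. Its median log2 ratio was -0.75 (-0.49 in microglia-like and -0.75 in macrophage-marker barcodes). The Fc receptor-like Fcrls went from 2192 CPM (2071 to 2317) to 353 (302 to 410), and in microglia-like barcodes from 2794 to 613. The purinergic receptor P2ry12 went from 4681 to 2062 CPM and Gpr34 from 1734 to 754, while Tmem119 (1298 and 1310) was level. Ch25h was scarce in microglia-like barcodes (0.792 and 0.528 CPM) and went from 149 CPM in 16 members to 22.98 in 5, a log2 ratio of -2.70 (-3.75 to -1.78). Pf4 went from 202 to 27.2 CPM, but it is 1 of the 6 genes the rule limits. Csmd3, Gas6, Kazn, H2bc4, Ecscr, Gatm and Nav2, also among the 12 lowest, had log2 ratios from -3.24 (Csmd3) to -1.86 (Nav2) in members. In microglia-like barcodes they ran from -3.07 (Csmd3) to -0.71 (Kazn). Tsc22d3, the glucocorticoid-induced leucine zipper (GILZ), was the lowest of all named genes, from 161 CPM (130 to 198) in 32 members to 16.7 (7.22 to 32.9) in 8, a log2 ratio of -3.27 (-4.53 to -2.23). In microglia-like barcodes Tsc22d3 went from 108 to 35.7 CPM, a log2 ratio of -1.59. Of the 12 glucocorticoid response genes that passed the minimum, Tsc22d3 was lower, Cdkn1a higher and the other 10 within the 2-fold limit. Over all genes, 2.96% were lower and 4.52% higher.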

How the data were processed

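The authors deposited gene-by-barcode matrices of raw UMI counts, 1 per library, with 10555 vehicle and 18113 corticosterone barcodes and 32589 features. Per the submitters' processing notes, bcl2fastq 2.19 and GRCm38 were used; the aligner, counter and cell calling are not given in the sources used here. Barcodes with at least 500 UMIs, 300 genes and at most 20% mitochondrial UMIs were kept (10500 and 17883). Counts were summed over members of each library and divided by their total (CPM). Ratios have exact conditional 95% intervals, levels exact Poisson intervals and shares Clopper-Pearson intervals; UMIs of 1 library are not biological replicates. The members and gene lists were chosen with earlier results of these data known. Named genes were those of the rule, the 12 highest and lowest ratios, the 15 highest and 5 lowest over microglia-like barcodes, the extremes and most abundant members of each list, and the leading genes of clusters; others were chosen after their values were seen. Macrophage-marker barcodes had at least 4 of the 6 macrophage genes and monocyte-marker barcodes at least 3 Ly6c2 UMIs. Clustering used scanpy 1.11.5 (1000 genes, 15 components, 10 neighbours, Leiden resolution 0.5). Alternatives included edgeR TMM and DESeq2 size factors; no model was fitted, since there was 1 library per group. The ratio procedure was tested on simulated counts. Promoters came from RefSeq, without entries for H2-Ab1 and Ciita.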

Additional observations from a re-analysis of the deposited data

Results flagged for a closer look

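For 3 genes the corticosterone library was past 2-fold higher among class II high barcodes and past 2-fold lower among microglia-like barcodes; the difference between the 2 classes was not tested. S100a6 had a log2 ratio of 1.49 among members (144 to 403 CPM) and -1.64 among microglia-like barcodes (58.3 to 18.6 CPM). Lgals3, galectin 3, had 1.37 (85.1 to 219 CPM) and -1.10 (15.1 to 7.04 CPM). Cd209a had 1.26 (112 to 267 CPM) and -3.97, where the microglia-like level was 2.12 and 0.135 CPM.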

How the results depend on the processing

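The vehicle share of class II high barcodes stayed above the corticosterone share under all 9 alternatives, by 2.29 to 3.28 times. None of the 9 relaxed the need for all 4 class II genes. That need alone left out 7 vehicle and 39 corticosterone barcodes. The shares were 0.333% and 0.145% with no macrophage gene detected, 1.53% and 0.503% with no limit on those genes, and 0.714% and 0.218% with at least 1% of UMIs in class II genes. Genes higher and lower in corticosterone members numbered 396 and 395 with no minimum CPM, 29 and 21 with a minimum of 200 CPM, and 238 and 197 in members at or below the median of microglial transcripts; with no macrophage gene detected 159 were lower. Against microglia-like barcodes, the counts higher and lower were 24 and 3 at 200 CPM, 194 and 134 in those low-microglial members, and 136 and 63 for the Cd209a cluster alone; 15 were lower with at least 1% class II. The clusters numbered 2 and 8 at the other resolutions. Log2 ratios past 2-fold or list medians changed sign without the Cxcl10-Il12b cluster for Ccl12 (-0.89) and Ccl4 (-0.14), in the Cd209a cluster alone for Ccl12 (-0.11), Ccl4 (-0.31) and the class I median (-0.092), and with no macrophage gene detected for Lyz1 (-0.48). Of genes not past the call, Lyz2 (-0.86), Apoe (-1.31) and Mgl2 (-0.33) turned with no macrophage gene detected. Cd40, with very few UMIs, turned without the Cxcl10-Il12b cluster (-2.54) or with at least 1% class II (-1.66). The cause of these changes was not tested. TMM and DESeq2 factors moved the median of all genes to 0.04 and 0.02. Alternatives by cluster, class II share or single barcodes were chosen after seeing the data. No paired analysis was possible because each group has 1 library. Genes under a mean of 50 CPM did not enter the counts, and levels given for them rest on few UMIs.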

Other observations

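Of the pattern recognition list, 5 of 17 genes that passed the minimum were higher in corticosterone than in vehicle class II high barcodes and none lower, against 4.52% of all genes higher, with a median log2 ratio of -0.08. Among them were the sensors of viral RNA Ddx58, which went from 19.5 to 96.1 CPM, Ifih1, from 39.0 to 117, and Tlr3, from 76.2 to 171. Without the 9 Cxcl10-Il12b barcodes their log2 ratios were 1.65, 0.00 and -0.16. The rest of the 5 were the lectins Clec4a1 and Cd209a, with log2 ratios of 1.33 and 1.26. Without the 9 barcodes these were 1.56 and 1.49. The other RNA sensors Tlr7 and Tlr13 had log2 ratios of -0.10 and -0.58 over all members. Among 24 genes of antigen uptake and the lysosome 3 were higher, against the same 4.52%: Cybb, the oxidase subunit, from 211 to 545 CPM, the Fc receptor Fcgr4 from 46.1 to 163 and Lgals3 from 85.1 to 219. Without the 9 barcodes the log2 ratio of Fcgr4 went from 1.82 to 0.85. Cybb and Fcgr4 rose more in microglia-like barcodes, with log2 ratios of 3.29 and 2.47, against 1.37 and 1.82 in members. Lgals3 was at -1.10 there, against 1.37 in members. Immediate early and stress genes had a median log2 ratio of -0.38 over 24 genes, against -0.20 in microglia-like barcodes, with 3 lower, against 2.96% of all genes, and none higher: Klf2 from 677 to 276 CPM, Fosb from 633 to 303 and Nr4a1 from 328 to 146. Without the Cxcl10-Il12b cluster 2 were lower, against 2.77% of all genes. With at least 1% of UMIs in class II genes 1 was lower, against 4.00%.

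Neutrophil transcripts among members came from few barcodes. Camp was at 1147 CPM in vehicle and 1358 in corticosterone members, and 1 barcode held 69.4% and 99.7% of its UMIs. In microglia-like barcodes Camp was at 564 and 152 CPM.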
